A study of Mus musculus with 30 samples.

Results

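The genes described here are the heat shock protein and DnaJ chaperones of mouse quadriceps muscle. They were taken by name: every entry of the deposited value table whose symbol starts with Hspa, Hspb, Hsph, Hsp90, Hspd, Hspe, Dnaja, Dnajb or Dnajc. This gave 67 members among 16475 entries tested. Hsp90aa1, Hsp90ab1, Hspb1 and Hspd1 are not among them, since no entry was assigned to these symbols. Nothing below describes these 4 genes. Of the entries tested, 695 had no single symbol. By the place where each protein is known to work, 38 were put with the cytosol and nucleus, 13 with the endoplasmic reticulum, 6 with the mitochondria and 10 with other or unsure places. The prefixes also take in genes that only carry such a name, for example Hspb11 and Hspbap1.

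The arrays came from male mice whose strain is spelled C56BL/6J in the sample labels and C57BL/6J in the design text. The animals entered a low fat (LF) run-in diet at 9 weeks of age for 3 weeks. The LF day 0 group was killed at its end, at 12 weeks. The remaining mice were given at random either more of the LF diet or a high fat (HF) diet, and were killed 56 days later, at 20 weeks. Each group held 10 mice with 1 Affymetrix array each. No genetic change is named for any group, and whole quadriceps was used, so each cell type in the muscle contributed RNA. The series asks how a diet that makes mice obese and insulin resistant alters gene expression in muscle.

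Heat shock proteins of the Hsp70 family bind unfolded stretches of protein and release them in cycles driven by ATP. DnaJ proteins (Hsp40) bring the client and switch on the ATPase, and exchange factors such as Hsph1 reset it. Small heat shock proteins (Hspb) hold unfolding proteins without ATP, and several are abundant in striated muscle. The inducible cytosolic members are classic targets of the heat shock factor HSF1, and those of the reticulum are targets of the unfolded protein response. Each compartment has its own Hsp70: Hspa8, Hspa1a and Hspa1b in the cytosol, Hspa5 (BiP) in the reticulum and Hspa9 (mortalin) in the mitochondria.

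The upstream sequences of 6 members that hold a motif are shown as examples of the classes compared here: the pair with the widest spread between mice (Hspa1b and Hspa1a), a DnaJ partner, a mitochondrial member and a pair of reticulum members. Each is the 250 bases before the gene's start in RefSeq (mouse build GRCm38.p6), 5′ to 3′. Capitals mark matches to GAANNTTC, a core heat shock element, in Hspa1b, Hspa1a, Dnaja1 and Hspe1. In Hspa5 and Hsp90b1 they mark matches on either strand to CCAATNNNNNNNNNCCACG, the reticulum stress element. The later stretch in Hsp90b1 is a match on the opposite strand. For Dnaja1, which has 3 windows (described below), the first with the element before the start is shown. All 6 genes hold the motif marked, which most of the 55 members with a window do not (12 hold the core element and 3 the reticulum one).
Hspa1b, chr17:34959239-34959488, minus strand: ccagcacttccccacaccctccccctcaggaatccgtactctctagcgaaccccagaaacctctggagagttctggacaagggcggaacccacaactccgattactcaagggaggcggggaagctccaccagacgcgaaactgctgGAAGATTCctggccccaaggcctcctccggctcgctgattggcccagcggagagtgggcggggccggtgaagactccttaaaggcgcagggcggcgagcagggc
Hspa1a, chr17:34972157-34972406, minus strand: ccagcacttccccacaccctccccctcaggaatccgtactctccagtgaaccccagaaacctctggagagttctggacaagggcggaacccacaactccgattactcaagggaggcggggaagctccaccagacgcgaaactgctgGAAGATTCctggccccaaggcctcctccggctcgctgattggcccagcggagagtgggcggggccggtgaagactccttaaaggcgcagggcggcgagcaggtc
Dnaja1, chr4:40722218-40722467, plus strand: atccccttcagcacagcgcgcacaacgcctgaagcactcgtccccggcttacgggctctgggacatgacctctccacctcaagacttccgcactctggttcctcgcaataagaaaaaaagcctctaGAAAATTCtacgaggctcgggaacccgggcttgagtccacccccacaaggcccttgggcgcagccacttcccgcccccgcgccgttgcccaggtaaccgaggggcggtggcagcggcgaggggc
Hspe1, chr1:55087898-55088147, plus strand: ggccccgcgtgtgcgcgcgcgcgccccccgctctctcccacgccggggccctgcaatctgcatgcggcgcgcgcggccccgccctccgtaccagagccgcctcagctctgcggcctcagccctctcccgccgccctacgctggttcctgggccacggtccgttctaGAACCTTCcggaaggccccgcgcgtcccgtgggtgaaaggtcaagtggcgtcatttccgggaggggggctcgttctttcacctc
Hspa5, chr2:34771840-34772089, plus strand: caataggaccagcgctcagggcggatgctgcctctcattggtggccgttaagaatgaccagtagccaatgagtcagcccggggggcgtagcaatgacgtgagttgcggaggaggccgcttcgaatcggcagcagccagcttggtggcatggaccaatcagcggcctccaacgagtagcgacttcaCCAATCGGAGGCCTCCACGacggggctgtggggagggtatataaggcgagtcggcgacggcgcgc
Hsp90b1, chr10:86705445-86705694, minus strand: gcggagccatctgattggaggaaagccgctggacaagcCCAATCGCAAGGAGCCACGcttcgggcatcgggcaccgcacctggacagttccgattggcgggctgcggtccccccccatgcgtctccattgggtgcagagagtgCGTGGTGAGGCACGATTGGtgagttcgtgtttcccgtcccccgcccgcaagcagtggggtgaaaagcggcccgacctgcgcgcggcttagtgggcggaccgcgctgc

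The Hspa1a and Hspa1b sequences were identical at 247 of 250 bases (98.8%), and in both the element lies 104 to 97 bases before the start. The transcripts of these neighbouring genes are near-identical copies as well, so their probes may share signal and the separate levels of the pair are uncertain. Windows of 300 bases (250 before and 50 after the start, 1 or more per gene) were matched to 55 of the 67 members, and a gene is counted where any of its windows holds the motif. GAANNTTC, which reads the same on both strands, was found in 12 of the 55 (21.8%) and in 9.04% of all 27025 genes with a window. The longer GAANNTTCNNGAA, searched on both strands and always overlapping the shorter motif, was found in Dnajb6, Hspe1 and Hsph1 (5.45%, against 0.662% of all genes). The reticulum stress element, searched on both strands, was found in Dnajc3, Hsp90b1 and Hspa5 (5.45%, against 0.137% of all genes). A match describes letters in the window and is not evidence of a bound factor.

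Markers of the labelled tissue were high: Ckm, the muscle creatine kinase, lay between 20472 and 22973 in intensity on the 30 arrays and Acta1, skeletal actin, between 26778 and 30599. Between 6334 and 6563 entries per array exceeded an intensity of 20. The arrays were split into sets of 9 and 21 by the 5′ to 3′ signal of their spike-in control RNAs. The cut was placed at the largest gap between the sorted values, from -1.49 to -1.27 (log2), within a range of -2.16 to -1.02. Every group holds 3 of the 9, and the sets are compared at the end. S100a8, a gene of neutrophils, read above 100 in 17 mice: 7 before the intervention, 4 after LF feeding and 6 after HF feeding. Of these mice, 3, 0 and 2 are on the 9 arrays of high spike-in signal. Fits without the 17 mice therefore hold no such array in LF day 0, and the sets are then shared unevenly between the groups. Over 8 neutrophil markers the summed intensity ran from 40.4 to 10318 in LF day 0, from 38.4 to 2613 in LF day 56 and from 38.0 to 13447 in HF day 56. Over 4 adipocyte markers it ran from 5883 to 7798, from 5931 to 9684 and from 6521 to 10979 in the same order. For 7 slow fibre markers the range was 383.4 to 5860.7, 362.6 to 7977.1 and 268.1 to 5632.5, so fibre content also varied widely within groups. In bulk tissue, fewer cells of a type and less RNA per cell cannot be told apart.

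Of the 67 members, 45 read above 20 on 5 arrays or more (25 cytosolic, 10 reticulum, 5 mitochondrial and 5 other), as did 6844 of all 16475 entries. The other 22 were at or near background. Among them were Dnajb6, a DnaJ protein of the muscle Z-disc (4.7 to 7.2 over all arrays), Dnajb11, a partner of Hspa5 (10.7 to 20.6), and Hspa2, an Hsp70 of the testis (5.9 to 14.7). Dnajb3, Dnajb7, Dnajb8, Dnajb13 and Hspb9 did not exceed 4.7 on any array. Of the rest, Hspa4l read up to 24.9, and Dnajc11, Dnajc16, Dnajc17, Dnajc18, Dnajc22, Dnajc24, Dnajc5b, Dnajc5g, Dnajc6, Hspa12a, Hspa12b, Hspa14 and Hspbap1 up to 18.8. A probe near background gives only a bound on its gene, so the low signal of Dnajb6 does not show that muscle lacks it.

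Between HF day 56 and LF day 56, a comparison which asks what the diet did at equal age, 0 of the 67 chaperones passed limma's test (adjusted p below 0.05 over all 16475 entries, of which 0.0243% passed). At an unadjusted p below 0.05 there were 3 members, beside 841 entries (5.10%). Of the members 33 had a higher and 34 a lower mean on the high fat diet, with a median difference of -0.0034 (log2), against 0.0029 over all entries. The 95% interval of the difference lay within 1.5-fold either way for 63 of the 67 (94.0%), against 97.4% of all entries. Both shares include entries near background, whose intervals say little about their genes. Over the 45 members above background the differences ran from -0.29 for Dnajc28 to 0.43 for Hspa1a.

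Between LF day 56 and LF day 0, a comparison of age and time on the diet, 0 members passed (0.850% of all entries did), and 1 member against 1668 entries (10.1%) had an unadjusted p below 0.05. Between HF day 56 and LF day 0, where diet and age differ together, 0 members passed (1.59% of all entries), and 5 members against 1815 entries (11.0%) had an unadjusted p below 0.05. The members' median differences were 0.023 and 0.0066 (log2), against 0.00089 and 0.0024 over all entries. The intervals lay within 1.5-fold for 61 and 62 members, 91.0% and 92.5%, against 96.1% and 96.2% of all entries. These shares, too, include entries near background. Both comparisons share the LF day 0 mice.

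**Figure D1:**
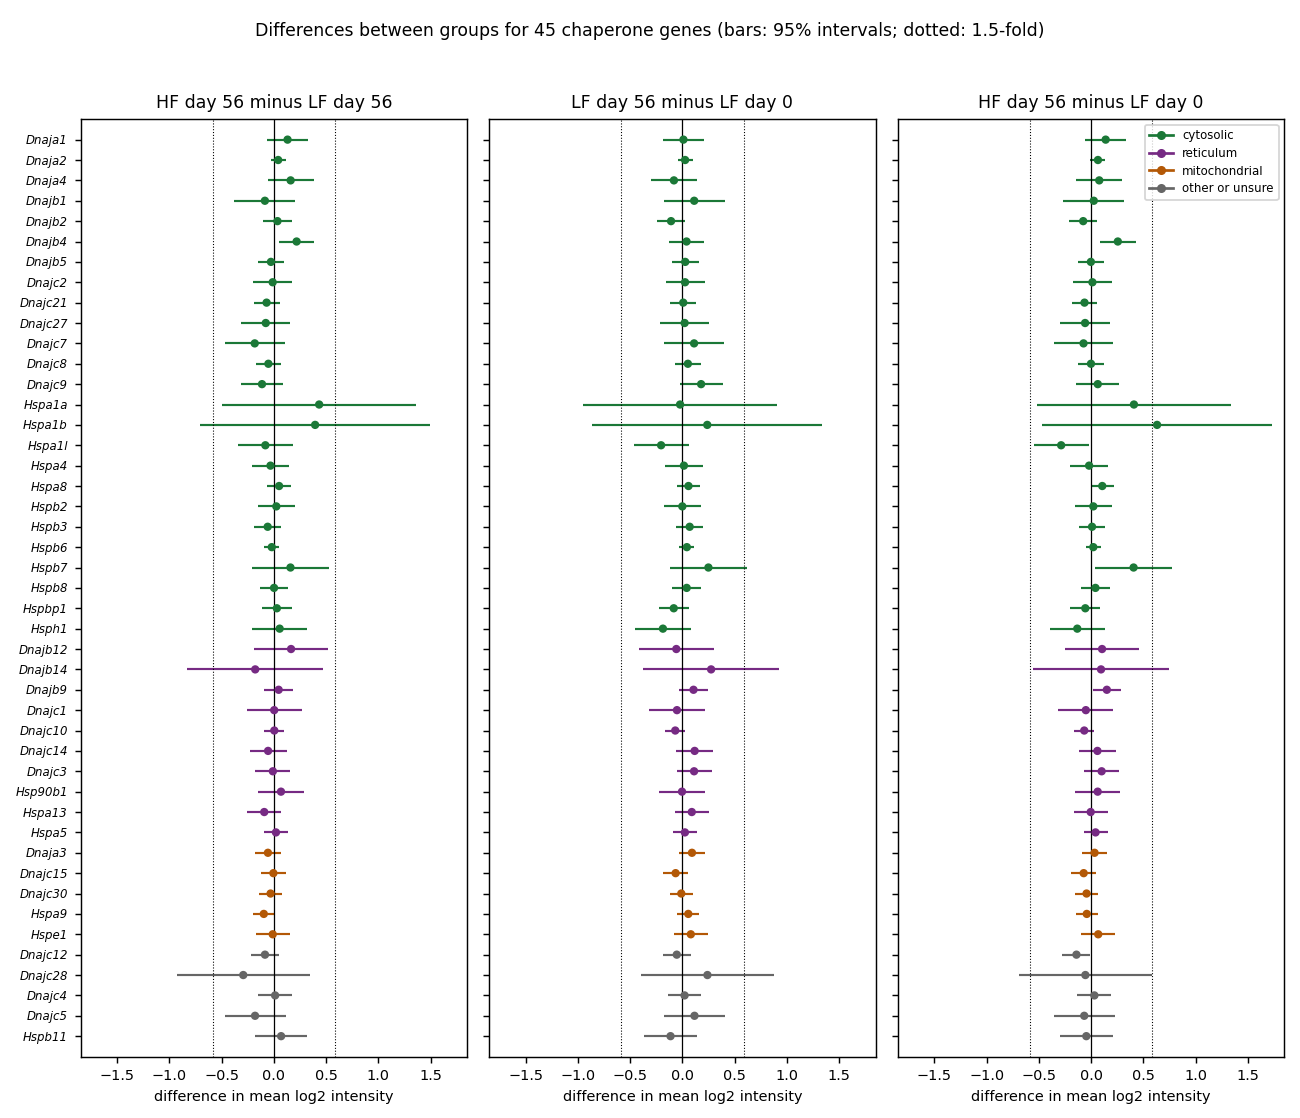
Differences in mean log2 intensity between groups for the 45 chaperone genes above an intensity of 20, coloured by compartment; bars are 95% intervals from limma and dotted lines mark 1.5-fold. The intervals of Hspa1a and Hspa1b are the widest of these 45 and cross 0, and that of Dnajb4 lies above 0 in the panels with the HF group.

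The inducible cytosolic Hsp70 genes gave the widest errors of the 45. Hspa1b read 51.8 to 695.3 in LF day 0 (median 122.9), 51.5 to 975.2 in LF day 56 (median 137.0) and 63.1 to 592.5 in HF day 56 (median 253.9). The 3 groups overlapped over most of their ranges. The difference between diets was 0.39 ± 0.54 (log2, SE; 95% interval -0.71 to 1.49; limma adjusted p = 0.998). That interval allows a change of over 1.5-fold in either direction, so a diet effect of that size was not detectable with these mice. Against LF day 0 the HF group differed by 0.63 ± 0.54 (adjusted p = 0.762) and the LF day 56 group by 0.24 ± 0.54 (adjusted p = 0.934).

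The diet difference of Hspa1b was 0.77 within the 21 arrays of low spike-in signal and -0.49 within the 9 others (limma adjusted p = 0.999 and 0.997). The 9 arrays hold 3 mice per group, and whether the diet difference depends on the set was not tested. Hspa1a read 19.4 to 120.6 in LF day 0 (median 31.6), 13.6 to 184.3 in LF day 56 (median 30.9) and 15.9 to 105.2 in HF day 56 (median 52.9). These groups overlapped too, and the HF median was the highest of the 3. The diet difference was 0.43 ± 0.46 (95% interval -0.50 to 1.36; adjusted p = 0.998), and within the 9 arrays it was -0.098. Without the 17 arrays of high S100a8 the diet differences of Hspa1b and Hspa1a were 0.065 and -0.029.

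Hspa8, the constitutive Hsp70 that also strips clathrin coats from vesicles, was among the 15 highest entries on every array. It read 15034 to 19111 in LF day 0 (median 17372), 15166 to 19849 in LF day 56 (median 18133) and 16789 to 20030.0 in HF day 56 (median 18781). The ranges overlapped, with the lowest mouse and the median highest in HF day 56. Its diet difference was 0.050 ± 0.055 (95% interval -0.062 to 0.16; limma adjusted p = 0.998), so the interval excludes a change of 1.5-fold either way. Hspa1l, a gene of the Hspa1a and Hspa1b cluster, had a difference of -0.29 ± 0.13 in HF day 56 against LF day 0 (adjusted p = 0.384), with ranges of 81.4 to 141.7 and 106.1 to 204.2 that overlapped.

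The exchange factors did not pass in any comparison. Hsph1 read 637.0 to 1124 in LF day 0 (median 805.2), 518.1 to 1019 in LF day 56 (median 667.6) and 565.6 to 1093 in HF day 56 (median 729.5). LF day 0 had the highest lowest mouse and the highest median, and the groups overlapped. The differences from LF day 0 were -0.19 ± 0.13 for LF day 56 (limma adjusted p = 0.673) and -0.13 ± 0.13 for HF day 56 (adjusted p = 0.809). Hspa4, a relative of Hsph1, differed between diets by -0.033 ± 0.088 (adjusted p = 0.998), and Hspbp1, an exchange factor of another fold, by 0.028 ± 0.070 (adjusted p = 0.998). Hspa4l, also related to Hsph1, was near background at 9.3 to 24.9 over all arrays. It had the smallest p of the members between LF day 56 and LF day 0 (difference -0.39 ± 0.16, unadjusted p = 0.0213, adjusted p = 0.375).

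Among the DnaJ partners, Dnajb4, a cytosolic relative of Dnajb1, had the smallest p of all members in both comparisons with the HF group. It read 443.1 to 615.0 in LF day 0 (median 497.2), 442.6 to 687.7 in LF day 56 (median 511.5) and 458.2 to 749.8 in HF day 56 (median 632.5). In HF day 56, 8 of 10 mice lay above the mean of LF day 56 and 8 of 10 above that of LF day 0, but the ranges overlapped. The differences were 0.22 ± 0.084 against LF day 56 (95% interval 0.046 to 0.39; unadjusted p = 0.0143, limma adjusted p = 0.825) and 0.26 ± 0.084 against LF day 0 (unadjusted p = 0.00458, adjusted p = 0.146). Between the LF groups the difference was 0.039 ± 0.084 (adjusted p = 0.930).

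The call on Dnajb4 against LF day 0 depended on the arrays and the covariate used. With the neutrophil score as a covariate the difference was 0.29 and passed (limma adjusted p = 0.0377), and without replicate 9 of HF day 56 it was 0.30 and passed (adjusted p = 0.0453). Without the 17 arrays where S100a8 exceeded 100 it was 0.12 (adjusted p = 0.845), and the difference between diets was then 0.045. Within the 21 and the 9 arrays of the spike-in sets the differences from LF day 0 were 0.28 and 0.21.

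None of the other DnaJ genes of the cytosol passed. Dnaja1, which works with Hspa8 on newly made proteins, read 270.9 to 456.0 (median 345.2), 280.9 to 521.9 (median 324.5) and 313.4 to 441.6 (median 363.7) in LF day 0, LF day 56 and HF day 56. The ranges overlapped, although the lowest HF mouse lay above the lowest of both LF groups, and the diet difference was 0.13 ± 0.097 (limma adjusted p = 0.998). Dnaja2, a related partner, had a diet difference of 0.041 ± 0.035 (adjusted p = 0.998). In HF day 56, 10 of 10 mice lay above the LF day 0 mean of Dnaja2, by 0.066 ± 0.035 on average (adjusted p = 0.511). Dnajb1, an HSF1 target that works with the inducible Hsp70, read 27.8 to 72.1, 37.9 to 81.2 and 35.7 to 65.5 in the same order, with a diet difference of -0.086 ± 0.14 (adjusted p = 0.998).

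Dnaja4 differed between diets by 0.16 ± 0.11, Dnajb2, which takes clients to degradation, by 0.034 ± 0.066, and Dnajb5 by -0.028 ± 0.063 (limma adjusted p = 0.998 for each). Some DnaJ proteins work outside folding proper. Dnajc7, a co-chaperone of Hsp70 and Hsp90, differed by -0.18 ± 0.14, Dnajc9, a histone chaperone, by -0.11 ± 0.10, and Dnajc2, which sits on the ribosome, by -0.012 ± 0.092 (adjusted p = 0.998 for each). Dnajc12, a partner of the aromatic amino acid hydroxylases, had a difference of -0.14 ± 0.066 in HF day 56 against LF day 0 (adjusted p = 0.419). Dnajb13 (0.14 ± 0.064) and Dnajc5b (-0.23 ± 0.11), the remaining members with an unadjusted p below 0.05 between diets, did not exceed 4.2 on any array.

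The small heat shock proteins typical of muscle stood well above background in every mouse. Hspb6 (Hsp20) is known for its part in muscle relaxation. It read 7499.6 to 8164 in LF day 0 (median 7727), 7681 to 8327 in LF day 56 (median 7986) and 7436 to 8915 in HF day 56 (median 7739). The groups overlapped within this narrow band, and the diet difference was -0.021 ± 0.036 (95% interval -0.093 to 0.052; limma adjusted p = 0.998). Hspb8, which acts with Bag3 in removing damaged filamin, read 2054 to 2651, 2045 to 2913 and 2073 to 2787 in LF day 0, LF day 56 and HF day 56. Those ranges overlapped almost fully, with a diet difference of 0.0015 ± 0.067 (95% interval -0.13 to 0.14). Hspb2 and Hspb3, which form a complex in muscle, differed by 0.023 ± 0.086 and -0.059 ± 0.062 (adjusted p = 0.998 for both).

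Hspb7, a small heat shock protein of heart and skeletal muscle that binds filamin C, varied more. It read 582.1 to 1341 in LF day 0 (median 765.7), 710.5 to 1929 in LF day 56 (median 875.8) and 650.9 to 1893 in HF day 56 (median 1100.0). The ranges overlapped. Its difference was 0.41 ± 0.18 for HF day 56 against LF day 0 (unadjusted p = 0.0328, limma adjusted p = 0.382; 8 of 10 mice above the LF day 0 mean) and 0.16 ± 0.18 between diets (adjusted p = 0.998). Between array sets Hspb7 differed by 0.62 ± 0.12 (adjusted p = 0.000204), higher on the 9 arrays. Without the 17 arrays of high S100a8 its diet difference was -0.23 (adjusted p = 0.991). The spike-in sets are then shared unevenly between the groups, and the part of the set in this value was not tested.

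**Figure D2:**
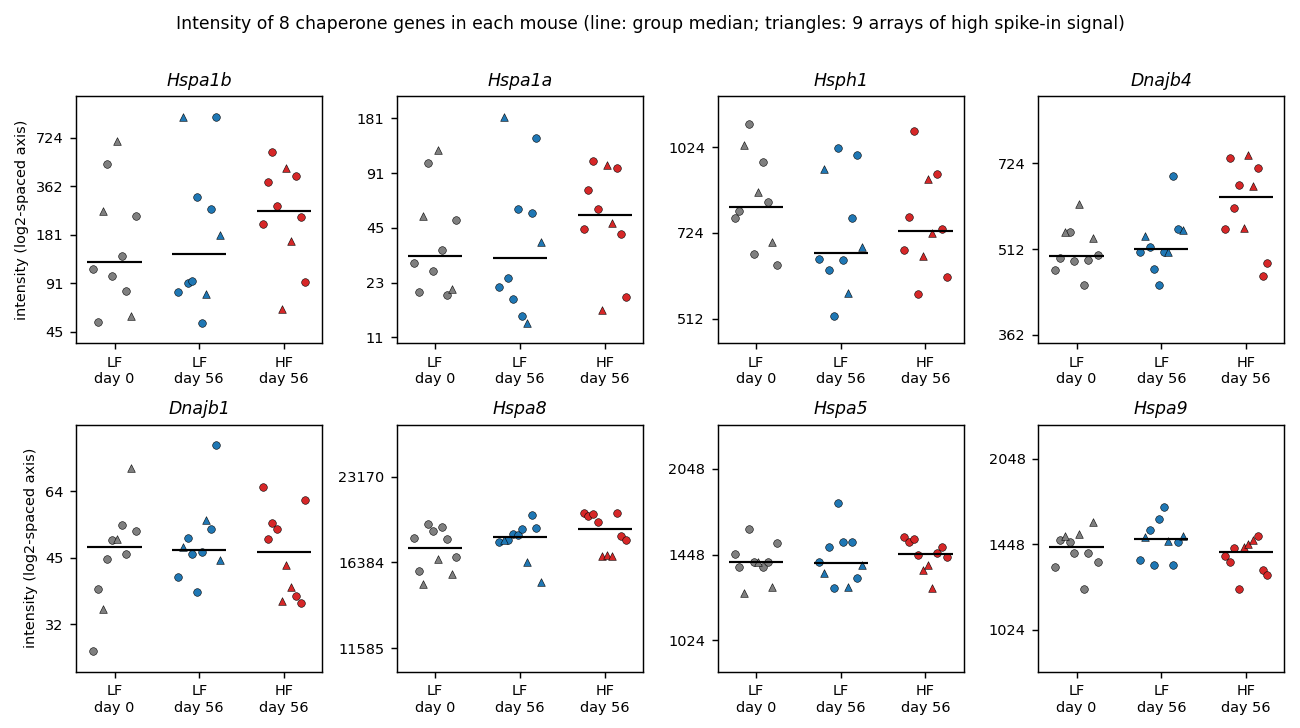
Intensity in each of the 30 mice (log2-spaced axis) for 8 chaperone genes by group; lines are group medians and triangles mark the 9 arrays of high spike-in signal. The highest mouse over the lowest is 13.4, 18.9, 9.39 for Hspa1b in LF day 0, LF day 56 and HF day 56 and 1.27, 1.31, 1.19 for Hspa8, and 8 of 10 HF mice lie above the LF means for Dnajb4.

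Of the 13 reticulum members 0 passed in each comparison, and 0, 0 and 1 had an unadjusted p below 0.05 between diets, between the LF groups and between HF day 56 and LF day 0. Hspa5 read 1240.3 to 1607 in LF day 0 (median 1404), 1268 to 1782 in LF day 56 (median 1398) and 1264 to 1555 in HF day 56 (median 1454). The groups of this reticulum Hsp70, a sensor of folding load, overlapped almost fully. The diet difference was 0.020 ± 0.056, and its 95% interval of -0.096 to 0.13 excludes a change of 1.5-fold (limma adjusted p = 0.998). Hsp90b1 (Grp94), the Hsp90 of the reticulum, read 660.3 to 1144, 690.9 to 1042 and 675.9 to 1131, with a diet difference of 0.068 ± 0.11 (95% interval -0.15 to 0.28; adjusted p = 0.998).

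Dnajb9 (ERdj4), which binds Hspa5 and helps remove misfolded proteins, had the smallest p of the reticulum members between HF day 56 and LF day 0. It read 870.6 to 1222 in LF day 0 (median 986.4), 926.3 to 1214 in LF day 56 (median 1075) and 969.7 to 1310.4 in HF day 56 (median 1093). The ranges overlapped, and 9 of 10 HF mice lay above the LF day 0 mean. The difference was 0.15 ± 0.067 (unadjusted p = 0.0304, limma adjusted p = 0.374), and without the 17 arrays of high S100a8 it was -0.065 (adjusted p = 0.922). Without those arrays the spike-in sets are shared unevenly between the groups. Between diets Dnajc3 (p58IPK), a co-chaperone of Hspa5, differed by -0.0099 ± 0.082, Dnajc10, which reduces disulfides, by 0.0038 ± 0.046, and Hspa13, an atypical Hsp70, by -0.092 ± 0.079 (adjusted p = 0.998 for each).

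For the mitochondrial members, all 6 intervals lay within 1.5-fold in each of the 3 comparisons. Of these, Dnajc11 read 3.3 to 5.3 over all arrays, near background, so its narrow interval says little about the gene. Hspa9 read 1208 to 1587 in LF day 0 (median 1431), 1330.3 to 1683 in LF day 56 (median 1479) and 1207 to 1499.8 in HF day 56 (median 1403). Of the HF mice 8 of 10 lay below the LF day 56 mean, and the ranges overlapped. The difference of this motor of protein import was -0.097 ± 0.052 between diets (unadjusted p = 0.0750, limma adjusted p = 0.991). Hspe1, the lid of the mitochondrial chaperonin, differed by -0.011 ± 0.079, Dnaja3, a partner of Hspa9, by -0.057 ± 0.061, and Dnajc15, which belongs with the import motor, by -0.0049 ± 0.057 (adjusted p = 0.998 for each).

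The wider folding machinery was read from 5 lists of genes that work with these chaperones. In the diet comparison 0 genes passed of 26 HSF1 and cytosolic co-chaperone genes, 14 of the chaperonin CCT and prefoldin, 32 of reticulum folding and the unfolded protein response, 22 of mitochondrial import and quality control and 13 of other chaperones and Z-disc quality control. Their median differences were 0.00066, -0.022, 0.0087, -0.024 and 0.012 (log2), against 0.0029 over all entries. Bag3, the partner of Hspb8, differed by 0.11 ± 0.064 (limma adjusted p = 0.998), Cryab, a small heat shock protein of lens and muscle, by 0.081 ± 0.058 (adjusted p = 0.998), and Serpinh1, the collagen chaperone Hsp47, by 0.27 ± 0.10 (adjusted p = 0.786).

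Between LF day 56 and LF day 0, 0 genes of these 5 lists passed. Between HF day 56 and LF day 0, 1 did: Xbp1, a transcription factor of the unfolded protein response, rose by 0.17 ± 0.046 (limma adjusted p = 0.0450). In the same comparison 3 of 4 adipocyte markers passed as higher (median difference 1.46) and 3 of 7 tendon and bone markers as lower (median -0.53). Between the LF groups 5 of these 7 passed as lower (median -0.81), and between diets 0 of either list passed. The summed intensity of the tendon and bone markers ran from 3047 to 4502 in LF day 0, from 2268 to 2819 in LF day 56 and from 1948 to 3356 in HF day 56. The part of these cells in the value of Xbp1 was not tested. Another list held the circadian clock, which drives daily rhythms in many muscle genes. Of 19 clock genes with an entry, 0 passed between diets, 4 rose from LF day 0 to LF day 56 (0.850% of all entries passed in either direction) and 5 from LF day 0 to HF day 56 (1.59%). Dbp, a clock output gene, rose by 0.48 ± 0.11 (adjusted p = 0.0291) and 0.45 ± 0.11 (adjusted p = 0.0290). The hour of killing is not given in the sources used here.

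Some of these genes varied widely between mice of the same group, and others hardly at all. Within groups, the SD of log2 intensity was 1.29 for Hspa1b and 1.09 for Hspa1a, which stood at the percentiles 99.6 and 99.5 of the 6844 entries above an intensity of 20. The median SD was 0.19 for these entries and 0.19 for the 45 chaperones among them. Dnajb14, a membrane DnaJ protein of the reticulum, and Dnajc28 followed with 0.76 and 0.75, then Hspb7 with 0.43 and Dnajb12 with 0.42. The array set was not removed from these SDs. Dnajc28, Hspb7 and Dnajb12 differed between the sets by 1.19, 0.62 and 0.71 (log2). The sets hold different mice, so set and mouse cannot be told apart here. The part of the set in these SDs was not tested. Hspa1a, Dnajb14 and Dnajc28 exceeded 20 on 23, 23 and 19 of the 30 arrays. At the other end, Dnaja2 and Hspb6 had an SD of 0.056 and 0.058 (percentiles 0.628 and 0.745). Hspa8 and Hspa5 had an SD of 0.11 and 0.12 (percentiles 14.6 and 17.0).

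**Figure D3:**
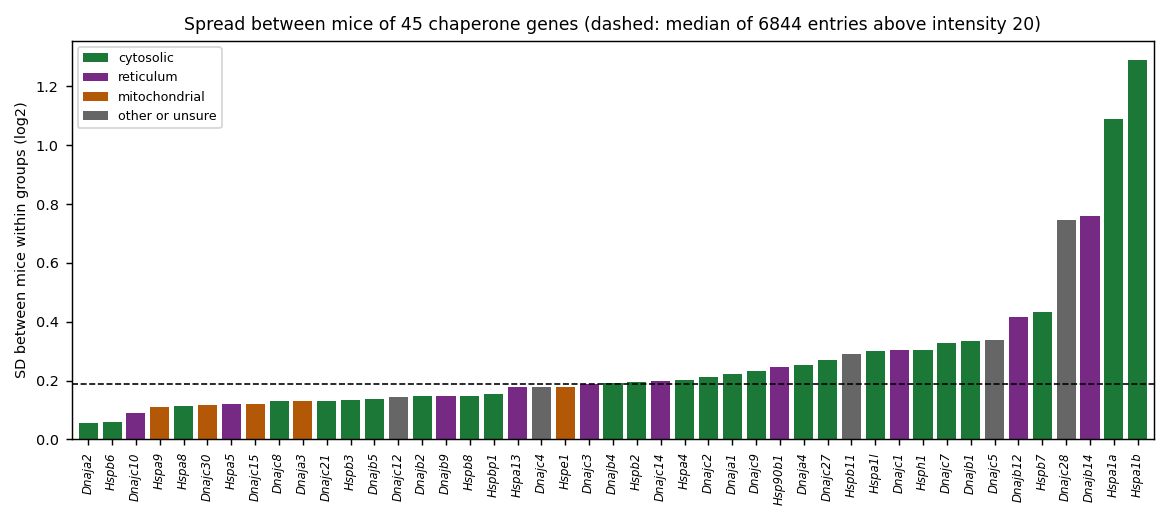
Standard deviation of log2 intensity between mice within groups for the 45 chaperones above an intensity of 20, coloured by compartment; the dashed line is the median of all 6844 such entries (0.19). Hspa1b (1.29) and Hspa1a (1.09) have the longest bars, and Dnaja2 and Hspb6 the shortest. Group means were removed, but not the array set.

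Which genes moved with Hspa1b from mouse to mouse was asked with group means removed, over 30 arrays and 6843 other entries above 20, by permutation within groups (100000 resamples, two-sided) with Benjamini-Hochberg adjustment over all of these entries. Of the entries 14 rose with Hspa1b (0.205%) and 15 fell as it rose (0.219%). Of the 44 other chaperones, 2 rose and 0 fell. Hspa1a followed Hspa1b closely (r = 0.98, permutation p = 1e-05, adjusted p = 0.0114; rho = 0.97, p = 1e-05, adjusted p = 0.0114). The p of 1e-05 is the smallest these permutations give, and r was 0.98 without the 2 most distant mice. Shared probe signal between these gene copies was not tested.

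Hsph1 was the other (r = 0.71, permutation p = 5e-05, adjusted p = 0.0311; rho = 0.72, p = 4e-05, adjusted p = 0.0144). Its r was 0.65 without the 2 most distant mice, and 0.49, 0.86 and 0.73 within LF day 0, LF day 56 and HF day 56. Within the 21 and the 9 arrays of the spike-in sets r was 0.70 and 0.86 for Hsph1 and 0.98 and 0.98 for Hspa1a. Hsph1 rose by 0.17 on the log2 scale for each log2 unit of Hspa1b. Within single groups of 10 mice 0 of 6843 entries passed, with 221, 460 and 287 at an unadjusted permutation p below 0.05. With a smallest possible p of 1e-05, a lone entry at that floor cannot pass an adjustment over 6843 entries. Hspa1a, with r of 0.99, 0.99 and 0.98 within LF day 0, LF day 56 and HF day 56, did not pass there either. These counts of 0 therefore do not show that no entry followed Hspa1b within a group.

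Dnaja1 did not pass over all mice (r = 0.59, permutation p = 0.00166, adjusted p = 0.136; rho = 0.53, p = 0.00429, adjusted p = 0.204), and its r was 0.45 without the 2 most distant mice. Within LF day 0, LF day 56 and HF day 56 its r was 0.0069, 0.86 and 0.91, and the difference between groups was not tested. Dnaja4 (r = 0.48, permutation p = 0.00732, adjusted p = 0.267; rho = 0.52, p = 0.00435, adjusted p = 0.205) did not pass, nor did Dnajb4 (r = 0.46, permutation p = 0.00887, adjusted p = 0.292; rho = 0.51, p = 0.00463, adjusted p = 0.211). Without the 2 most distant mice these stood at r = 0.47 and 0.49.

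The constitutive Hsp70 gene, Hspa8, did not pass (r = 0.26, permutation p = 0.179, adjusted p = 0.760; rho = 0.29, p = 0.129, adjusted p = 0.722). With the array set removed as well as the group, its r was higher (r = 0.50, adjusted permutation p = 0.194). Dnajb1, an HSF1 target like Hspa1b, did not pass either (r = 0.15, permutation p = 0.453, adjusted p = 0.918; rho = 0.077, p = 0.689, adjusted p = 0.980). Without the 2 most distant mice their r was 0.25 and -0.0058. Over the 44 chaperones the median r was 0.058 and 26 were above 0, against a median of -0.043 over all entries.

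**Figure D4:**
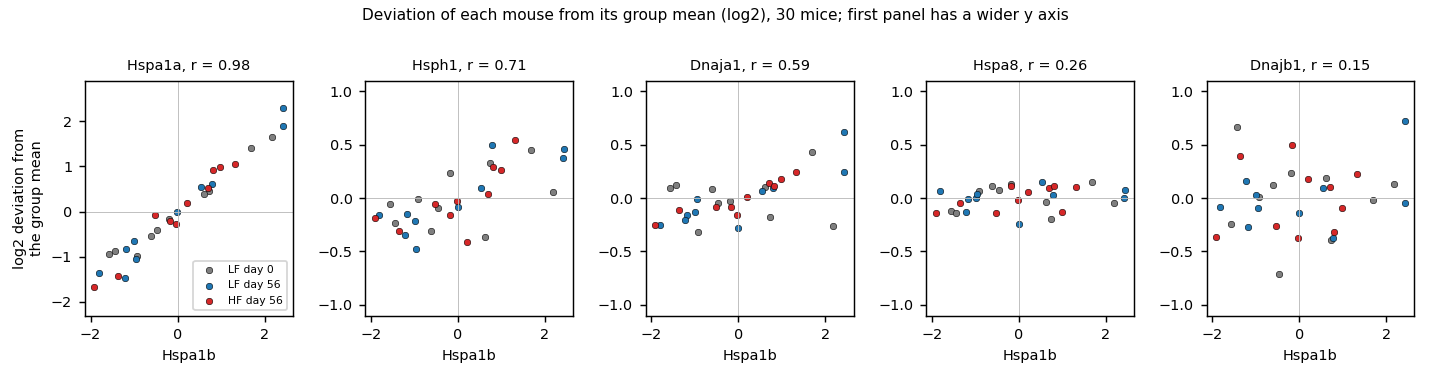
Deviation of each mouse from its group mean (log2) for Hspa1b on the x axis and 5 other chaperones on the y axes, coloured by group; the first panel has a wider y axis. The r over 30 mice is 0.98 for Hspa1a, 0.71 for Hsph1, 0.59 for Dnaja1, 0.26 for Hspa8 and 0.15 for Dnajb1.

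The entries most like Hspa1b in this measure, after Hspa1a, included a chaperone of another kind. Serpinh1 came first (r = 0.79, permutation p = 1e-05, adjusted p = 0.0114; rho = 0.78, p = 1e-05; r = 0.74 without the 2 most distant mice), with r of 0.75, 0.89 and 0.68 within LF day 0, LF day 56 and HF day 56. It was followed by the amino acid carrier Slc38a2 (r = 0.76, permutation p = 1e-05, adjusted p = 0.0114; rho = 0.78, p = 1e-05; r = 0.82 without the 2 most distant mice), by Banp (r = 0.73, permutation p = 1e-05, adjusted p = 0.0114; rho = 0.79, p = 2e-05; r = 0.77 without the 2 most distant mice) and by Adgrl4 (r = 0.73, permutation p = 3e-05, adjusted p = 0.0257; rho = 0.73, p = 4e-05; r = 0.69 without the 2 most distant mice).

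The most opposite entry was Kazald1 (r = -0.76, permutation p = 1e-05, adjusted p = 0.0114; rho = -0.78, p = 1e-05; r = -0.74 without the 2 most distant mice). Igfbp3, which binds insulin-like growth factors, was next (r = -0.73, permutation p = 3e-05, adjusted p = 0.0257; rho = -0.76, p = 2e-05; r = -0.61 without the 2 most distant mice), then Pxmp2 (r = -0.70, permutation p = 5e-05, adjusted p = 0.0311; rho = -0.74, p = 2e-05; r = -0.73 without the 2 most distant mice), Klf15, a transcription factor induced by glucocorticoids (r = -0.69, permutation p = 0.000100, adjusted p = 0.0438; rho = -0.76, p = 1e-05; r = -0.65 without the 2 most distant mice), and Art5 (r = -0.69, permutation p = 0.000150, adjusted p = 0.0438; rho = -0.68, p = 0.000150; r = -0.69 without the 2 most distant mice).

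By list, 0 of 22 HSF1 and cytosolic co-chaperone genes above background passed, 0 of 13 of the chaperonin CCT and prefoldin and 0 of 21 of mitochondrial import. The reticulum list had 1 of 22 and the list of other chaperones 1 of 11, beside 0.205% of all entries that rose. The 2 that passed were Serpinh1 and Clu, the secreted chaperone clusterin (r = 0.72, permutation p = 9e-05, adjusted p = 0.0438; rho = 0.67, p = 0.000220, adjusted p = 0.0373). Cryab (r = 0.64, permutation p = 0.000290, adjusted p = 0.0570; rho = 0.67, p = 0.000150, adjusted p = 0.0322) and Ahsa2, related to an activator of Hsp90 (r = 0.64, permutation p = 0.000340, adjusted p = 0.0582; rho = 0.68, p = 0.000160, adjusted p = 0.0322), passed by rho but not by r. Stip1, which links Hsp70 with Hsp90, passed by neither (r = 0.60, permutation p = 0.000720, adjusted p = 0.0908; rho = 0.57, p = 0.00199, adjusted p = 0.150). Without the 2 most distant mice r was 0.63, 0.64, 0.60 and 0.54. Of 15 clock genes above background 0 rose and 0 fell with Hspa1b (median r = -0.20), and Dbp did not pass (r = -0.57, permutation p = 0.00126, adjusted p = 0.127; rho = -0.63, p = 0.000490, adjusted p = 0.0615; r = -0.61 without the 2 most distant mice). Scores for 8 cell types and the spike-in signal were set against Hspa1b in the same way, 9 relations in all. The strongest was the macrophage score (r = 0.31, permutation p = 0.0885, adjusted p = 0.747; rho = 0.29, p = 0.131, adjusted p = 0.768), and the neutrophil score was weaker (r = 0.22, permutation p = 0.238, adjusted p = 0.747; rho = 0.20, p = 0.309, adjusted p = 0.768).

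With Dnajb1 as the reference, 0 of 6843 entries passed by r or by rho (0.00%), with 404 and 594 at an unadjusted permutation p below 0.05. The nearest entry was Zfand2a, another gene induced by heat and arsenite (r = 0.68, permutation p = 0.000150, adjusted p = 0.777; rho = 0.56, p = 0.00189; r = 0.49 without the 2 most distant mice). The rapidly induced genes Klf2 (r = 0.64) and Dusp1 (r = 0.59) came next.

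The Hsp70 genes of the reticulum and the mitochondria were taken as references in turn. With Hspa5, 432 entries rose (6.31%) and 402 fell (5.87%), and 3 and 4 of the 44 other chaperones. Over the 44, r was highest for Hspa4 (0.70) and Hspa8 (0.56) and lowest for Dnajb5 (-0.54) and Hspb2 (-0.53). With the array set removed as well, 0 entries passed (0.00%), with 847 at an unadjusted permutation p below 0.05. Hsp90b1, which also carries the reticulum stress element shown above, then stood at r = 0.57, adjusted permutation p = 0.232, against r = 0.032, rho = 0.017 and adjusted p = 0.929 before. Dnajc3, the third gene with that element, stood at r = 0.42, adjusted permutation p = 0.378, against r = -0.11, rho = -0.22 and adjusted p = 0.746 before. Neither passed. Within the 21 and the 9 arrays r was 0.56 and 0.78 for Hsp90b1 and 0.50 and 0.085 for Dnajc3.

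With Hspa9, 828 entries rose (12.1%) and 721 fell (10.5%), and 7 and 2 of the 44 other chaperones. With the array set removed, 530 (7.75%) and 380 (5.55%) entries passed, with 4 and 1 chaperones. So many entries followed Hspa9 that the chaperones among them are listed as a description. Dnaja3, the mitochondrial DnaJ partner, stood at r = 0.56, adjusted permutation p = 0.0380, against r = 0.65, rho = 0.70 and adjusted p = 0.00367 before. The reticulum Hsp90, Hsp90b1, stood at r = 0.77, adjusted permutation p = 0.00285, against r = 0.81, rho = 0.83 and adjusted p = 0.000616 before, and the small heat shock protein Hspb2 at r = -0.63, adjusted permutation p = 0.0325, against r = -0.36, rho = -0.32 and adjusted p = 0.157 before. Within the 21 and the 9 arrays r was 0.57 and 0.084 for Dnaja3, 0.83 and -0.11 for Hsp90b1 and -0.67 and 0.69 for Hspb2. The other chaperones that passed were Dnajc27 (r = 0.73, adjusted permutation p = 0.00653; 0.75 and 0.0088 within the 21 and the 9 arrays) and Dnajc28 (r = 0.70, adjusted permutation p = 0.00180; 0.81 and 0.13). The difference between the sets was not tested. Hspe1 of the chaperonin did not pass with the set removed (r = 0.45, adjusted permutation p = 0.109).

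More chaperones passed between the array sets than between the diets. Between the 9 arrays of high and the 21 of low spike-in signal, 11 of the 67 members were higher (10.8% of all entries were) and 10 lower (12.4%) in limma. These 21 stand beside 23.1% of all entries that passed. Of the 45 members above background, 10 were higher and 10 lower, where 39.8% of the 6844 entries above an intensity of 20 passed in either direction. Dnajc28 differed most, by 1.19 ± 0.18 (log2, SE; adjusted p = 7.97e-06), with 26.4 to 68.2 on the 9 arrays and 10.7 to 35.3 on the 21. Dnajb12, a membrane DnaJ protein of the reticulum, differed by 0.71 ± 0.091 and Dnajc7 by 0.64 ± 0.046 (adjusted p = 5.51e-07 and 8.81e-12). Dnajc7 read 516.6 to 661.3 on the 9 arrays and 320.0 to 440.1 on the 21, without overlap.

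Hspa4 differed by -0.36 ± 0.046, at 80.2 to 91.0 on the 9 arrays and 98.8 to 127.3 on the 21, again without overlap (limma adjusted p = 6.12e-07). Hspa8 was lower on the 9 arrays as well (-0.18 ± 0.036, adjusted p = 0.000220), and so was Hspa5 (-0.15 ± 0.043, adjusted p = 0.00985), while Hsp90b1 was higher (0.29 ± 0.080, adjusted p = 0.00698). Each group holds 3 of the 9 arrays. With the set as a block 0 members passed in each comparison, and the lowest adjusted p of a member was 0.334 between diets, 0.295 between the LF groups and 0.0961 between HF day 56 and LF day 0.

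**Figure D5:**
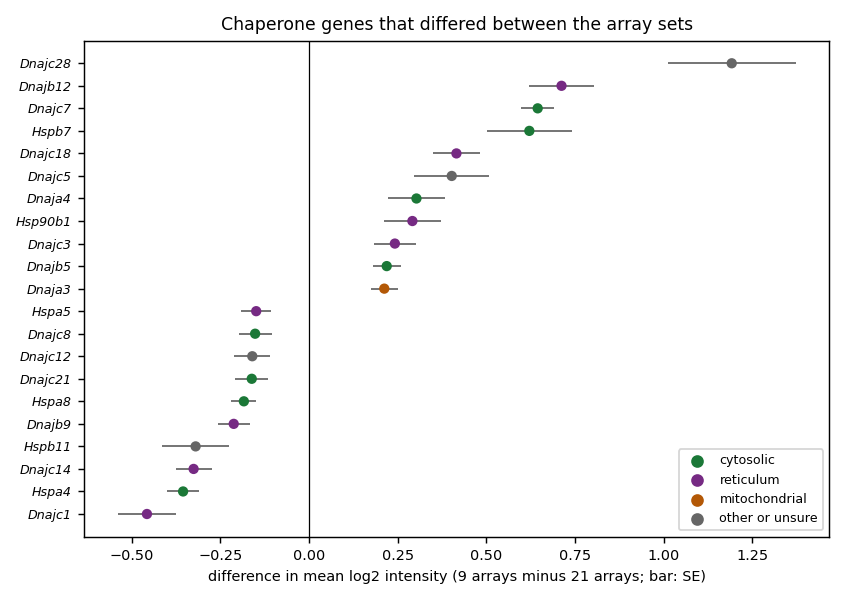
Difference in mean log2 intensity between the 9 arrays of high and the 21 of low spike-in signal for the 21 chaperones that passed limma's test, coloured by compartment; bars are standard errors. The values run from -0.46 for Dnajc1 to 1.19 for Dnajc28, and cytosolic and reticulum members lie on both sides of 0.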

How the data were processed

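RNA from 30 quadriceps muscles, 1 mouse per Affymetrix array, was summarised by the authors with GCRMA, per the submitters' processing notes (version and build not given in the sources used here). The deposited values are linear intensities, from 1.2 to 30599, and no count or depth exists for arrays. Precision depends on the number of arrays and on each gene's spread between them. GCRMA corrects background and makes arrays alike, which can hide shifts common to all genes. Of 16539 entries, 64 control entries were left out.

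Log2 intensities (no pseudocount) were fitted with limma 3.58.1 in R 4.3.3, 3 groups sharing 1 variance, with Benjamini-Hochberg adjustment over all 16475 entries. Correlations used numpy 2.4.6 and scipy 1.17.1. The code was tested on simulated data.

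The members, the compartments and the lists were chosen with earlier results of these data known. Values in full are given for members chosen by role, for those of smallest p per comparison and compartment, and for the 5 entries most like Hspa1b. Dnajb1, Hspa5 and Hspa9 as references and the scores against Hspa1b were added after seeing the data. The entries of lowest r, those nearest Dnajb1 and the folding partners named for their r were chosen after their values were seen. Alternatives changed the prior, the normalization, the filter, the arrays used and the covariates. Replicate numbers recur across groups, but each belongs to another mouse, so samples were not paired. That each array is a separate animal comes from the labels.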

Additional observations from a re-analysis of the deposited data

Results flagged for a closer look

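In 7 of 135 groups examined (45 chaperones above background in 3 groups of 10), 1 mouse stood apart from the others by a gap, as a share of the group's range, above Dixon's 95% critical value; chance alone flags about 1 in 20 groups. Dnajb1, the HSF1 target, was highest in replicate 9 of LF day 56, at an intensity of 81.2, with the nearest mouse at 55. Dnajb4, its cytosolic relative, was highest in replicate 8 of LF day 56, at an intensity of 687.7, with the nearest mouse at 555. Dnajc1, a membrane DnaJ protein of the reticulum, was lowest in replicate 3 of LF day 0, at an intensity of 130.9, with the nearest mouse at 198.1. Dnajc12 was lowest in replicate 6 of HF day 56, at an intensity of 185.4, with the nearest mouse at 231.3. Dnajc4 was highest in replicate 2 of HF day 56, at an intensity of 226.2, with the nearest mouse at 176.3. Dnajc9, a histone chaperone, was lowest in replicate 2 of LF day 56, at an intensity of 225.8, with the nearest mouse at 272.4. Hspb11 was lowest in replicate 6 of HF day 56, at an intensity of 20.8, with the nearest mouse at 31.3. The mice that were low in Dnajc1, Dnajc12 and Hspb11 are among the 9 arrays of high spike-in signal, and these genes were lower on those arrays as a set, with differences of -0.46 ± 0.082, -0.16 ± 0.051 and -0.32 ± 0.095 (log2, SE; limma adjusted p = 8.37e-05, 0.0209 and 0.0128). The mouse lowest in Dnajc9 is on 1 of these 9 arrays as well, and Dnajc9 did not pass between the sets (0.20 ± 0.083, adjusted p = 0.0832). The part of the array set in these low values was not tested.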

How the results depend on the processing

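In each of the 3 comparisons 0 members passed under the alternatives tried, with exceptions in 1 comparison. Between HF day 56 and LF day 0, 1 passed (Dnajb4) with the neutrophil covariate (0.29), and leaving out 1 mouse at a time gave 0 to 1, against 0 to 0 in the other comparisons. With the replicate number as a block, although the numbers pair no mice, 0 members passed in each, and 1, 104 and 209 entries in place of 4, 140 and 262. Over all settings these counts ran from 0 to 12, 11 to 214 and 0 to 384, and leaving out 1 mouse from 2 to 15, 102 to 155 and 214 to 271. Of the chaperones 2 followed Hspa1b, also 2 by rho or with the array set removed, and 0, 0 and 0 within single groups of 10 mice. Within single groups a lone entry could not pass, even at the smallest p these permutations give. Of 66 differences of single members, 35 never changed sign. None of the others passed in either direction, and the cause was not tested. Within the 21 arrays of low spike-in signal the differences turned to Dnajb1 0.011, Dnajc3 0.024, Hspb6 0.013, Hspe1 0.025 between diets, and Dnaja1 -0.0034, Hsp90b1 0.028, Hspa1a 0.035, Hspb8 -0.0042 between LF groups. Without the arrays of high S100a8 the differences turned to Dnajb1 0.012, Dnajc3 0.0044, Hsp90b1 -0.070, Hspa1a -0.029, Hspb7 -0.23, Hspb8 -0.0070 between diets, and Dnajb9 -0.12, Dnajc6 -0.0039, Hsp90b1 0.26, Hspa1a 0.50, Hspa8 -0.071 between LF groups, and Dnajb9 -0.065, Hspa8 -0.0019, Hspb6 -0.042, Hsph1 0.0080 between HF day 56 and LF day 0. In that fit the spike-in sets are shared unevenly between the groups. With array weights the differences turned to Dnajc3 0.010 between diets, and Dnaja1 -0.0023 between LF groups. With quantile normalization the differences turned to Dnajc3 0.0025 between diets, and Dnaja1 -0.0086 between LF groups. With the neutrophil covariate the differences turned to Dnajc3 0.017 between diets, and Hspa1a 0.22 between LF groups. Within the 9 arrays of high signal the differences turned to Hspa13 0.041, Hspa1a -0.098, Hspa1b -0.49, Hspb8 -0.048 between diets, and Dnajb1 -0.031, Hspa9 -0.042 between LF groups, and Dnaja3 -0.043, Dnajb1 -0.34, Dnajc3 -0.012, Hspa1a -0.26, Hspa1b -0.34, Hspb6 -0.0067 between HF day 56 and LF day 0. With median centring the differences turned to Hspb8 -0.0030 between diets, and Hsp90b1 0.0095 between LF groups. With the slow fibre covariate the differences turned to Hspb8 -0.0068 between diets, and Dnajb1 -0.0068 between HF day 56 and LF day 0. With a pseudocount of 16 the differences turned to Hspa1a 0.032 between LF groups. Leaving out 1 mouse at a time, the ranges that crossed 0 were Dnaja1 -0.059 to 0.057, Hsp90b1 -0.046 to 0.042, Hspa1a -0.28 to 0.16, Hspa1b -0.033 to 0.48, Hspa5 -0.013 to 0.045 between LF groups, and Dnajb1 -0.053 to 0.10 between HF day 56 and LF day 0, and Dnajc3 -0.050 to 0.025, Hspb8 -0.026 to 0.036, Hspe1 -0.059 to 0.036, Hsph1 -0.0051 to 0.11 between diets. The 10 mice per group limit what could be detected most for Hspa1a and Hspa1b, and signal near background for 22 members.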
